A study of Mus musculus with 10 samples.

Results

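The cytosolic HSP70 and HSP110 chaperones were followed in C2C12 myotubes, through 9 transcripts chosen by symbol out of the 57010 gene identifiers of the deposited expression table: Hspa1b, Hspa1a, Hspa1l, Hspa2, Hspa8 and Hspa14 of the HSP70 branch and Hsph1, Hspa4 and Hspa4l of the HSP110 branch. All 9 were found, 1 identifier each, and all 9 passed the filter on low values used for testing, a mean of at least 3 on the deposited log2 scale. The family was chosen with its difference between the groups already known, so the values of its members are a description and carry no test. C2C12 is a wild-type line of mouse myoblasts whose cells fuse to multinucleated myotubes in low serum, and the labels give the cell type as myoblast. All cells were differentiated for 3 days on collagen and then given adenovirus, and polyadenylated RNA was sequenced 48 h later from strand-specific libraries. The 5 Arrdc2 libraries came from myotubes given virus that encodes Arrdc2, an alpha-arrestin, together with Gfp. The 5 GFP libraries came from myotubes given virus that encodes Gfp only. The sources used here name neither the promoter in the viruses nor the share of cells transduced, and they do not state if the libraries of a group had separate cultures behind them, so any p-value measures only the spread between these libraries, which may be technical.

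HSP70 proteins hold exposed hydrophobic stretches of other proteins in a cycle of ATP binding and hydrolysis: J-proteins deliver the client and stimulate hydrolysis, and nucleotide exchange factors, among them the HSP110 and BAG proteins, release it. HSPA8, the cognate form, is made in unstressed cells, whereas the Hspa1a and Hspa1b genes are switched on by heat and other proteotoxic stress through heat shock factor 1, which binds heat shock elements in their promoters. Contracting muscle is a known site of this response, and members of the family take part in the folding of sarcomeric proteins and in their removal through chaperone-assisted autophagy. Hspa1a, Hspa1b and Hsph1 were counted as inducible and the other 6 members as constitutive.

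Recovered depth was 23.5 to 28.65 M (mega) reads in the Arrdc2 libraries and 18.93 to 26.03 M reads in the GFP libraries. Levels below are normalised reads, that is reads recovered from the deposited values and divided by each library's size factor, and libraries are named by the numbers in the table's column names. The Arrdc2 gene had 132.1 ± 15.6 normalised reads in the Arrdc2 libraries and 102.7 ± 14.5 in the GFP libraries (SD, n = 5 each), a 1.29-fold higher level (95% interval 1.09 to 1.51, limma adjusted p = 0.0178) with 3 of 5 Arrdc2 libraries above the highest GFP library. Whether reads of the virus-encoded transcript were counted towards this gene is not stated. Of 10 myotube markers all were tested and 3 fell (Myh8, Acta1 and Des), against 15.8% of all genes called lower (limma adjusted p under 0.05), and the summed reads of the list were 324995 to 366882 in the Arrdc2 libraries and 364057 to 385553 in the GFP libraries. Of 3 myoblast markers 2 rose (Myf5 and Pax7), against 14.5% of all genes called higher, with sums of 3530 to 3777 in the Arrdc2 libraries and 2985 to 3707 in the GFP libraries. The part of these and the following markers in the chaperone differences was not tested, and in bulk RNA fewer cells of a type cannot be told apart from less RNA per cell. Summed reads of fibroblast markers were 6548 to 8823 in the Arrdc2 libraries and 6698 to 9946 in the GFP libraries, and those of macrophage markers 106 to 121 in the Arrdc2 libraries and 100 to 120 in the GFP libraries, while adipocyte markers summed to 3 reads or fewer in every library. Col1a1 made up most of the fibroblast sum, at 7650 ± 939 in the Arrdc2 libraries and 7958 ± 1180 in the GFP libraries. The fibroblast markers Thy1, Lum and Tcf21 were below the filter on low values. Endothelial markers summed to 44 to 68 reads in the Arrdc2 libraries and 32 to 46 in the GFP libraries, and neural and glial markers to 29 to 42 in the Arrdc2 libraries and 27 to 46 in the GFP libraries, with Sox10 at 0. Of these other cell types 3 fibroblast, 2 macrophage, 1 endothelial, 0 adipocyte and 1 neural and glial marker were tested. Among them Tek of endothelium (1.61-fold higher, limma adjusted p = 0.00578) and Dpt of fibroblasts (1.56-fold higher, limma adjusted p = 0.0261) rose, and none fell. Of all genes 14.5% were called higher. Both had few reads, with Tek at 44.38 ± 7.92 in the Arrdc2 libraries and 27.39 ± 4.86 in the GFP libraries. Dpt had 28.74 ± 6.84 in the Arrdc2 libraries and 17.69 ± 4.51 in the GFP libraries.

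The stress-inducible members were much lower in the Arrdc2 libraries, with Hspa1b 3.77 times, Hspa1a 3.03 times and Hsph1 2.10 times lower than in the GFP libraries. Among the constitutive members Hspa8 was 1.50 times lower, Hspa14 and Hspa4 were 1.12 and 1.11 times lower, Hspa1l and Hspa4l overlapped between the groups, and Hspa2 was 1.15 times higher. In the limma fit over all 15223 genes tested, 6 of the 9 members were called lower at an adjusted p under 0.05, against 15.8% of all genes, and 1 (Hspa2) was called higher, against 14.5%; in either direction 30.3% of all genes were called. The values of the groups did not overlap for 7 members, 6 of them lower, against 19.7% of all genes in either direction, 11.0% lower and 8.7% higher. Nothing is read from these counts, since the same contrast chose the family. The median difference of the 9 members was −0.12 on the deposited log2 scale, and that of all genes tested was 0.00. Within a group the coefficient of variation of a member's normalised reads ran from 1.33% to 11.5%.

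**Figure D1:**
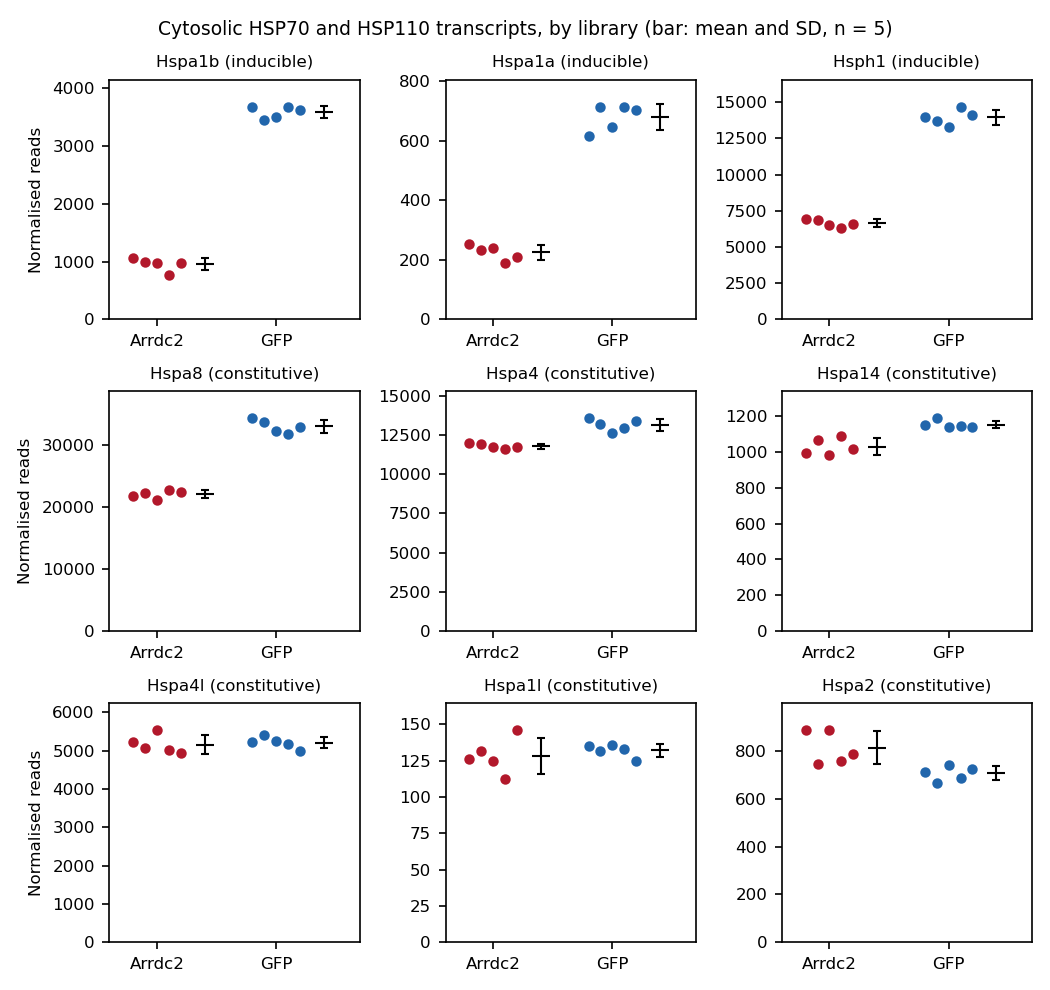
Normalised reads (vertical axes, each from 0) of the 9 members in each of the 5 Arrdc2 libraries (red) and the 5 GFP libraries (blue), with the group mean and SD as a black bar beside the points. Hspa1b lies at 771.0 to 1053 reads in the Arrdc2 libraries and at 3448 to 3675 in the GFP libraries, whereas the points of Hspa1l and Hspa4l overlap between the groups.

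Hspa1b and Hspa1a encode the major inducible HSP70 and lie in the same orientation on chromosome 17. Hspa1b had 1053, 997.1, 976.6, 771.0 and 978.0 normalised reads in Arrdc2 libraries 6, 7, 9, 10 and 11, against 3675, 3448, 3496, 3662 and 3614 in GFP libraries 3, 4, 5, 6 and 7. Every Arrdc2 library was far below every GFP library, and Arrdc2 library 10 was the lowest of its group by a wide gap. The means were 955.2 ± 108 in the Arrdc2 libraries and 3579 ± 102 in the GFP libraries (SD, n = 5 each), 3.77 times lower (95% interval 3.45 to 4.12). The deposited log2 values differed by −1.40 ± 0.04 (SE), the largest negative difference of any gene tested, and by fold of recovered reads Hspa1b ranked 8th among the genes that were lower. The deposited scale is smaller because regularized log values pull each library towards the gene's mean.

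Hspa1a was the less abundant copy, at 253.9, 232.2, 240.3, 188.9 and 209.7 normalised reads in Arrdc2 libraries 6, 7, 9, 10 and 11, against 618.0, 715.5, 648.6, 715.0 and 703.7 in GFP libraries 3 to 7. The groups did not overlap, and Arrdc2 library 10 was again the lowest. The means were 225 ± 25.8 in the Arrdc2 libraries and 680.1 ± 44.4 in the GFP libraries, 3.03 times lower (95% interval 2.71 to 3.39), with a log2 difference of −0.87 ± 0.04 (SE) as deposited. The coding sequences of the pair are 99.6% identical, with 8 of 1926 aligned bases different, and 58.8% of the 50-base words of Hspa1a transcripts also occur in Hspa1b, so how reads were split between them is uncertain. Summed over both genes the reads were 1180 ± 131 in the Arrdc2 libraries and 4259 ± 101 in the GFP libraries, 3.61 times lower. The share of these summed reads given to Hspa1a was 19.1% ± 0.866 in the Arrdc2 libraries and 16.0% ± 1.04 in the GFP libraries, and the groups did not overlap.

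The promoters of the inducible pair and of Hsph1 are shown because these 3 genes were lowest together and each holds a heat shock element pair. That choice used both the difference and the element, so finding them together in these genes is no result. RefSeq sequences (GRCm38.p6) were matched for 8 of the 9 members, all but Hspa8. Each line gives the 250 bases before an annotated start, 5′ to 3′ on the gene's strand. Capitals mark the element pair, GAANNTTC or TTCNNGAA, each of which reads the same on both strands. The Hspa1b stretch is chr17:34959239-34959488 (minus strand), Hspa1a chr17:34972157-34972406 (minus strand), Hsph1 chr5:149636316-149636565 (minus strand) and Hspa2 chr12:76404120-76404369 (plus strand). Hspa2, the member that was higher, was also chosen by its difference and holds no such pair. Hspa4 and Hspa14, which were called lower, hold none either, so nothing is read from its absence in Hspa2.
Hspa1b: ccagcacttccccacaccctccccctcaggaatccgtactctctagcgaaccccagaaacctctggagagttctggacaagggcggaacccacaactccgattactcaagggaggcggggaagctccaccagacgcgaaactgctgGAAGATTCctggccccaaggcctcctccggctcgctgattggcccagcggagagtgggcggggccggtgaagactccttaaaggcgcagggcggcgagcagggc
Hspa1a: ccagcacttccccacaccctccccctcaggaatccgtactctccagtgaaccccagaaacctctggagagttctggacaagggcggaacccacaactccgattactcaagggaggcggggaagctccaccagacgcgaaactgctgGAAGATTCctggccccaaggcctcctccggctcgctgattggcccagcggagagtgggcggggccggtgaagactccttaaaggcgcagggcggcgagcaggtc
Hsph1: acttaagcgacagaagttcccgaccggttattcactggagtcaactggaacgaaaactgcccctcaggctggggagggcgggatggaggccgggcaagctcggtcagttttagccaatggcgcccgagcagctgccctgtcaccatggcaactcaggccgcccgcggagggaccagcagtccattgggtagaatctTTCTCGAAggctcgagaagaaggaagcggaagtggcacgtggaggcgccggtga
Hspa2: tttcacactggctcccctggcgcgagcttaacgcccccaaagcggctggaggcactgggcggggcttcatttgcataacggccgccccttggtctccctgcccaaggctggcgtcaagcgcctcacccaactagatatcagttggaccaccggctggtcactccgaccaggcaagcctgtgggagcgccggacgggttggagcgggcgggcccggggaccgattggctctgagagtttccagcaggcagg

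Over 300 bases, 250 before and 50 after the start, the promoters of Hspa1b and Hspa1a differed at 4 positions. Counted from 1 at the 5′ end of the window, with the base of Hspa1b first, these were T44C, C47T and G249T before the start and T276C after it. Both genes hold the element pair at −104 to −97 from the start, a CCAAT box at −67 to −63 and 3 GC boxes (GGGCGG on either strand). Hsph1 has 2 annotated starts, 1 of which is shown. From the shown start it holds a pair at −54 to −47 and, after the start, 2 overlapping pairs that make a triple (TTCNNGAANNTTC) at 15 to 27 bases. The 25 bases around that triple, chr5:149636282-149636306 (minus strand), are printed with the triple in capitals.
Hsph1 triple: tgcagaTTCTGGAAAGTTCtcctca
The windows of Hspa2, Hspa1l, Hspa14, Hspa4 and Hspa4l hold no element pair, although Hspa14 and Hspa4 were also called lower. Hspa8, also called lower, had no sequence to match. Of 27025 genes with a promoter in the table, 17.0% held at least 1 pair in such a window and 0.662% held a triple (GAANNTTCNNGAA or TTCNNGAANNTTC). A match is a string of letters and no evidence of binding.

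**Figure D2:**
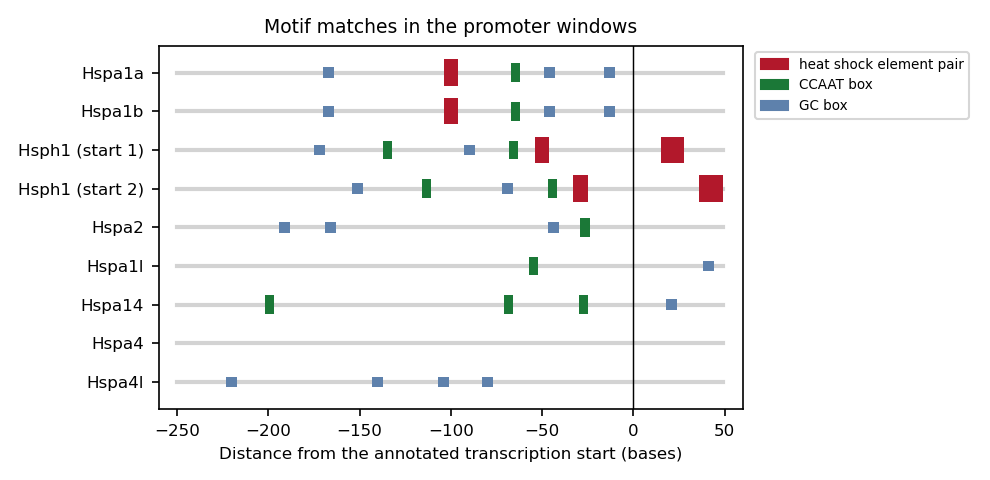
Positions of heat shock element pairs (red), CCAAT boxes (green) and GC boxes (blue) relative to the annotated transcription start (horizontal axis, in bases) in the 9 RefSeq windows of 8 members. Red marks appear in the rows of the inducible members, Hspa1a, Hspa1b and both starts of Hsph1, and in no row of the 5 constitutive members drawn. Hspa8 had no window and is not drawn.

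Hsph1, also known as HSP105 or HSP110, is a nucleotide exchange factor of HSP70 and the member of its branch counted here as inducible. It had 6958, 6834, 6514, 6296 and 6600 normalised reads in Arrdc2 libraries 6, 7, 9, 10 and 11, against 13957, 13685, 13291, 14692 and 14138 in GFP libraries 3 to 7. The highest Arrdc2 library was far below the lowest GFP library. The means were 6640 ± 262 in the Arrdc2 libraries and 13953 ± 522 in the GFP libraries, 2.10 times lower (95% interval 1.99 to 2.22), and the deposited difference was −0.85 ± 0.03 (SE). None of its 50-base transcript words occurs in another annotated gene, so no copy shares its reads at that length.

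Hspa4 and Hspa4l encode the other HSP110 proteins. Hspa4 had 12006, 11903, 11706, 11614 and 11747 normalised reads in Arrdc2 libraries 6, 7, 9, 10 and 11, against 13581, 13180, 12611, 12935 and 13388 in GFP libraries 3 to 7. The groups did not overlap, by a narrow margin, with means of 11795 ± 157 in the Arrdc2 libraries and 13139 ± 381 in the GFP libraries, 1.11 times lower (95% interval 1.06 to 1.17). Quantile normalization ended the limma call of Hspa4, at a difference of −0.07. Hspa4l had 5218, 5057, 5549, 5026 and 4942 normalised reads in Arrdc2 libraries 6, 7, 9, 10 and 11, against 5223, 5400, 5256, 5166 and 5004 in GFP libraries 3 to 7. Its groups overlapped, with Arrdc2 library 9 above and Arrdc2 library 11 below every GFP library. The fold of Hspa4l was 0.99 with a 95% interval of 0.937 to 1.05.

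Within the HSP110 branch the balance differed between the groups. Per kilobase of the longest coding transcript, Hsph1 stood at 1750 ± 68.9 normalised reads in the Arrdc2 libraries and 3670 ± 137 in the GFP libraries, and Hspa4 at 2550 ± 34.1 in the Arrdc2 libraries and 2850 ± 82.4 in the GFP libraries. Hsph1 thus held 36.0% ± 0.683 of the branch in the Arrdc2 libraries and 51.9% ± 0.981 in the GFP libraries, and Hspa4 stood above Hsph1 in the Arrdc2 libraries and below it in the GFP libraries. Which isoform the cells used is unknown, and it sets the length in these levels. The sum of the branch per kilobase was 4845 ± 106 in the Arrdc2 libraries and 7065 ± 173 in the GFP libraries, 1.46 times lower.

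Hspa8, the constitutive HSP70 that also uncoats clathrin vesicles and carries clients to lysosomes, was the most abundant member per kilobase, at 9210 ± 265 normalised reads in the Arrdc2 libraries and 13800 ± 428 in the GFP libraries. Its reads were 21749, 22289, 21088, 22722 and 22344 in Arrdc2 libraries 6, 7, 9, 10 and 11, against 34292, 33693, 32222, 31799 and 32916 in GFP libraries 3 to 7. The groups were clearly apart, and Arrdc2 library 10, lowest for the inducible members, was here the highest of its group. The means were 22039 ± 635 in the Arrdc2 libraries and 32984 ± 1020 in the GFP libraries, 1.50 times lower (95% interval 1.43 to 1.57), and the deposited difference was −0.47 ± 0.03 (SE). At 388th by fold among the genes that were lower, Hspa8 had a modest ratio, but its mean was lower by more reads than that of any other member.

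Reads of Hspa8 are shared with copies of the gene. Of its 50-base transcript words, 38.6% occur in 14 other genes, most of them annotated as processed pseudogenes, and 34.6% occur in the pseudogene Gm15459. That row of the table held 9516, 9924, 9751, 9783 and 10416 normalised reads in Arrdc2 libraries 6, 7, 9, 10 and 11, against 14129, 14423, 13766, 13518 and 13710 in GFP libraries 3 to 7. Reads given to the pseudogene amounted to 44.8% ± 1.55 of those given to Hspa8 in the Arrdc2 libraries and 42.2% ± 0.712 in the GFP libraries. The pseudogene row was 1.41 times lower in the Arrdc2 libraries, and with both rows summed the reads were 31916 ± 826 in the Arrdc2 libraries and 46894 ± 1340 in the GFP libraries, 1.47 times lower. Whether the pseudogene is itself transcribed was not tested, and the level of Hspa8 per kilobase is uncertain by that amount.

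Hspa2, a member best known from spermatogenesis, went the other way. It had 888.2, 745.7, 885.1, 756.3 and 787.2 normalised reads in Arrdc2 libraries 6, 7, 9, 10 and 11, against 711.8, 667.3, 739.3, 686.9 and 724.1 in GFP libraries 3 to 7. All 5 Arrdc2 libraries were above the highest GFP library, the lowest of them narrowly. The means were 812.5 ± 69.4 in the Arrdc2 libraries and 705.9 ± 28.9 in the GFP libraries, 1.15-fold higher (95% interval 1.05 to 1.25), and the deposited difference was 0.13 ± 0.04 (SE). Its transcripts share no 50-base word with another annotated gene, although its coding sequence is 80.0% identical to that of Hspa1a.

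Hspa1l, another testis-enriched member, starts 547 bases from the start of Hspa1a on the opposite strand. It had 126.5, 132.0, 124.9, 112.4 and 146.4 normalised reads in Arrdc2 libraries 6, 7, 9, 10 and 11, against 135.0, 131.9, 136.0, 132.8 and 125.1 in GFP libraries 3 to 7. The groups overlapped, and the fold of 0.963 had a 95% interval of 0.844 to 1.10. Hspa1l showed no difference beyond the spread between libraries beside a divergent neighbour that was 3.03 times lower, and its interval does not reach that size. Of its 50-base words 9.57% also occur in Hspa1a, and how such reads were split was not tested.

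Hspa14, which works with a J-protein at the ribosome, had 994.5, 1071, 984.3, 1093 and 1017 normalised reads in Arrdc2 libraries 6, 7, 9, 10 and 11, against 1152, 1191, 1142, 1146 and 1143 in GFP libraries 3 to 7. The groups did not overlap, and GFP library 4 stood above the rest of its group. The means were 1032 ± 47.8 in the Arrdc2 libraries and 1155 ± 20.7 in the GFP libraries, 1.12 times lower (95% interval 1.05 to 1.19). The annotation holds a further gene, Gm45902, with which Hspa14 shares 6.83% of its 50-base words, at 118.9 ± 14.6 normalised reads in the Arrdc2 libraries and 114.8 ± 17.6 in the GFP libraries.

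**Figure D3:**
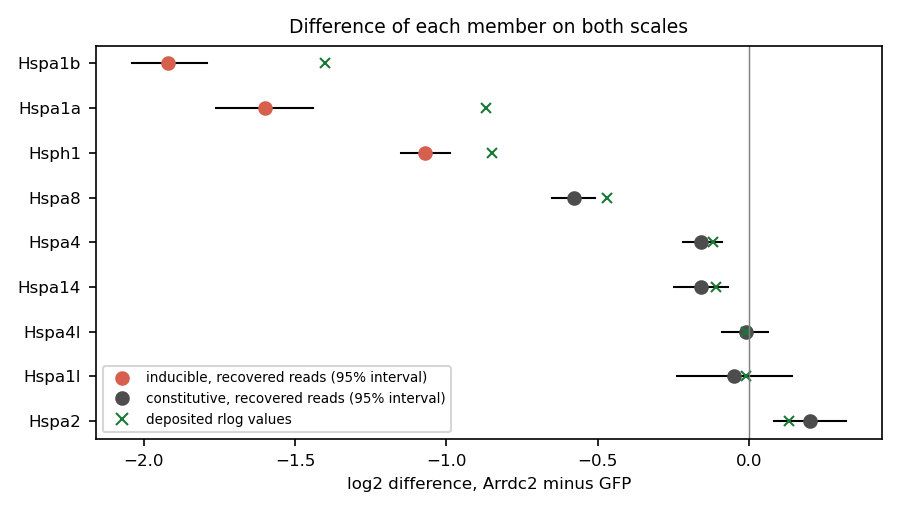
Log2 difference of each member, Arrdc2 minus GFP (horizontal axis), from recovered reads with 95% intervals (circles, coloured by class) and on the deposited scale (green crosses). The 3 inducible members lie farthest to the left on both scales, followed by Hspa8, and Hspa2 lies to the right of 0.

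The inducible members were compared with the constitutive ones inside each library, so that a library's depth cancels. The classes were set with earlier results of these data known, so the gap between them is a description and no test. The mean deposited value of the inducible members minus that of the constitutive members was −0.69, −0.72, −0.75, −0.87 and −0.76 on the log2 scale in Arrdc2 libraries 6, 7, 9, 10 and 11, against 0.14, 0.16, 0.15, 0.24 and 0.21 in GFP libraries 3 to 7. Every Arrdc2 library was below every GFP library, and the groups averaged −0.76 ± 0.068 in the Arrdc2 libraries and 0.18 ± 0.043 in the GFP libraries, a difference of −0.94. Where 0 falls on this measure depends on which genes are in each class, so the difference is read and not the sign. It was −1.40 in recovered reads, −0.86 without Hspa1l and Hspa2, and −0.66 with Hspa4l counted as inducible. As a single pair, Hspa1b stood at 3.71% ± 0.478 of the level of Hspa8 per kilobase in the Arrdc2 libraries and at 9.27% ± 0.395 in the GFP libraries. The lowest ratio, 2.90%, was that of Arrdc2 library 10 and the highest, 9.84%, that of GFP library 6.

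The family as a whole was smaller in the Arrdc2 libraries, and its make-up differed. Summed per kilobase, the 9 members had 15483, 15598, 15021, 15485 and 15491 normalised reads in Arrdc2 libraries 6, 7, 9, 10 and 11, against 23985, 23549, 22690, 23004 and 23396 in GFP libraries 3 to 7. The means were 15416 ± 226 in the Arrdc2 libraries and 23325 ± 499 in the GFP libraries, 1.51 times lower. Hspa8 held 59.7% ± 1.12 of the sum in the Arrdc2 libraries and 59.1% ± 0.840 in the GFP libraries, and the groups overlapped. The share of Hsph1 was 11.3% in the Arrdc2 libraries and 15.7% in the GFP libraries, and that of Hspa1b was 2.21% in the Arrdc2 libraries and 5.48% in the GFP libraries. Hspa4 took up the larger share of 16.6% in the Arrdc2 libraries, against 12.2% in the GFP libraries. Hspa2 held 2.09% in the Arrdc2 libraries and 1.20% in the GFP libraries; in the Arrdc2 libraries it stood close to Hspa1b, which was well above it in the GFP libraries.

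Per kilobase in the Arrdc2 libraries the order of levels was Hspa8, Hspa4, Hsph1, Hspa14, Hspa4l, Hspa1b, Hspa2, Hspa1a and Hspa1l. In the GFP libraries it was Hspa8, Hsph1, Hspa4, Hspa1b, Hspa14, Hspa4l, Hspa2, Hspa1a and Hspa1l. Neighbours whose levels lay within their spread were Hspa14 at 575 ± 26.6 and Hspa4l at 544 ± 25.3, and Hspa1b at 341 ± 38.4 and Hspa2 at 322 ± 27.5 normalised reads per kilobase, both pairs in the Arrdc2 libraries. This order and the shares above depend on the transcript length used, and the isoforms in the cells are unknown. In the Arrdc2 libraries Hspa4l had 5158 ± 240 normalised reads over 9479 bases, and Hspa14 had 1032 ± 47.8 over 1795 bases. At the low end Hspa1a had 75.8 ± 8.69 in the Arrdc2 libraries and 229 ± 15.0 in the GFP libraries, and Hspa1l had 52.0 ± 4.99 in the Arrdc2 libraries and 53.5 ± 1.73 in the GFP libraries.

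**Figure D4:**
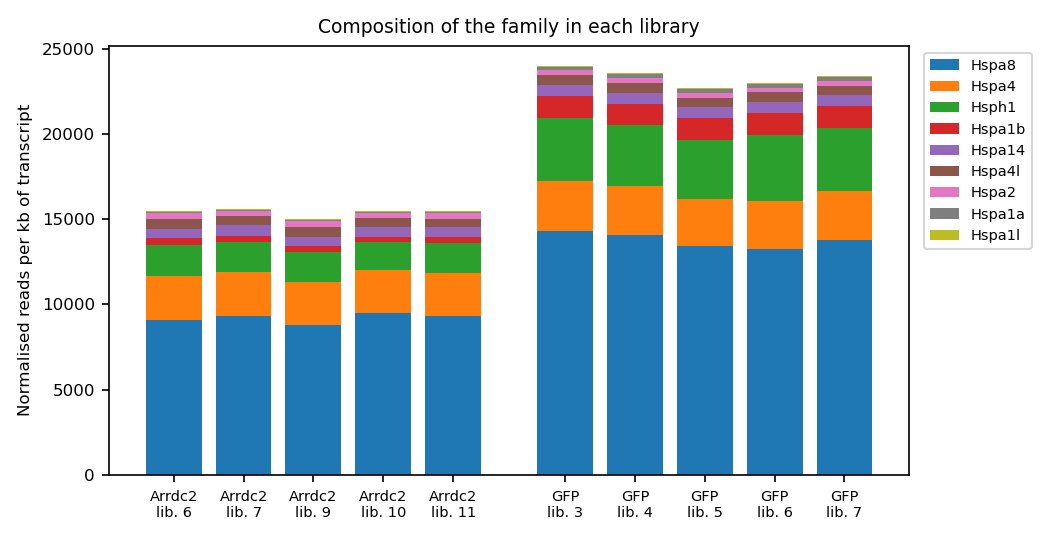
Normalised reads per kilobase of the longest coding transcript (vertical axis), stacked over the 9 members, in each Arrdc2 library (left) and each GFP library (right). The stacks reach 15021 to 15598 in the Arrdc2 libraries and 22690 to 23985 in the GFP libraries, and Hspa8 (blue) takes a like share of each.

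Some listed partners of HSP70 were lower, led by the J-proteins Dnajb1 and Dnajb4 and by Hsp90aa1, and 17 of 37 were not called. The lists were chosen with earlier results of these data known. Their counts and p-values, here and below, are therefore a description, and nothing is read from the counts. Of 37 partner and related genes in 5 lists, all tested, 18 fell, 2 rose and 17 were not called, against 15.8% of all genes called lower and 14.5% called higher, and their median difference was −0.08 on the deposited scale against 0.00 for all genes tested. Among 14 J-proteins of cytosol and nucleus, 7 fell and 1 rose, with a median of −0.12. Dnajb1, the stress-inducible partner of HSPA1, averaged 1909 ± 55.0 normalised reads in the Arrdc2 libraries and 3318 ± 134 in the GFP libraries (SD, n = 5 each), 1.74 times lower (95% interval 1.64 to 1.84, limma adjusted p = 6.34e-11). Dnajb4 averaged 2626 ± 140 in the Arrdc2 libraries and 4205 ± 271 in the GFP libraries, 1.60 times lower (limma adjusted p = 6.03e-09). Dnaja1, a co-chaperone of HSPA8, was 1.37 times lower (limma adjusted p = 2.92e-07), and Dnajc2, the ribosome partner of Hspa14, 1.27 times lower (limma adjusted p = 9.61e-06). In the other direction Dnajc13, which recruits HSPA8 to endosomes, was 1.10-fold higher, with 4 of 5 Arrdc2 libraries above the highest GFP library (limma adjusted p = 0.0154).

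Factors that release nucleotide or act after HSP70 were led by the HSP90 genes and Stip1. Of 7 BAG and HspBP1 genes 3 fell and none rose, against 15.8% of all genes called lower and 14.5% called higher. Bag3, which joins HSP70 to small heat shock proteins and autophagy in muscle, averaged 2669 ± 243 normalised reads in the Arrdc2 libraries and 3242 ± 202 in the GFP libraries, 1.22 times lower (limma adjusted p = 8.76e-04). Bag5 and Bag1 were 1.16 and 1.09 times lower. Of 6 docking and transfer partners 4 fell, with a median of −0.26: the inducible HSP90 gene Hsp90aa1 was 1.58 times lower (95% interval 1.49 to 1.67, limma adjusted p = 1.36e-09), Hsp90ab1 1.36 times lower, and Stip1, which bridges HSP70 and HSP90, 1.33 times lower. St13, a further cofactor of the HSP70 cycle, was 1.18 times lower. Hikeshi, which carries HSP70 into the nucleus, was at 838.6 ± 77.0 in the Arrdc2 libraries and 871.2 ± 67.9 in the GFP libraries and was not called.

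The heat shock factors had folds close to 1. Hsf1, the main factor of the heat shock response, had 1596 ± 58.1 normalised reads in the Arrdc2 libraries and 1706 ± 103 in the GFP libraries and missed the threshold, at a fold of 0.935 (95% interval 0.876 to 0.999) and a limma adjusted p of 0.122. Hsf2 had 1271 ± 48.9 in the Arrdc2 libraries and 1398 ± 78.7 in the GFP libraries, 1.10 times lower (limma adjusted p = 0.0299), with 4 of 5 Arrdc2 libraries below the lowest GFP library. Hsf4 and Hsbp1, a factor-binding protein, were not called, at folds of 0.985 and 1.03. The activity of heat shock factor 1 is known to be set mainly on the protein, which was not measured.

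Of 6 relatives, in organelles or distant in sequence, 3 fell, 1 rose and 2 were not called. Over all genes 15.8% were called lower and 14.5% higher. Hspa5 of the endoplasmic reticulum averaged 19493 ± 1100 normalised reads in the Arrdc2 libraries and 25590 ± 1600 in the GFP libraries (1.31 times lower, limma adjusted p = 6.1e-06). Hspa9 of mitochondria was 1.23 times lower and Hyou1, the HSP110 of the endoplasmic reticulum, 1.21 times lower. Hspa12a, a distant relative, was 1.23-fold higher (limma adjusted p = 2.88e-04), with all 5 Arrdc2 libraries above the highest GFP library.

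**Figure D5:**
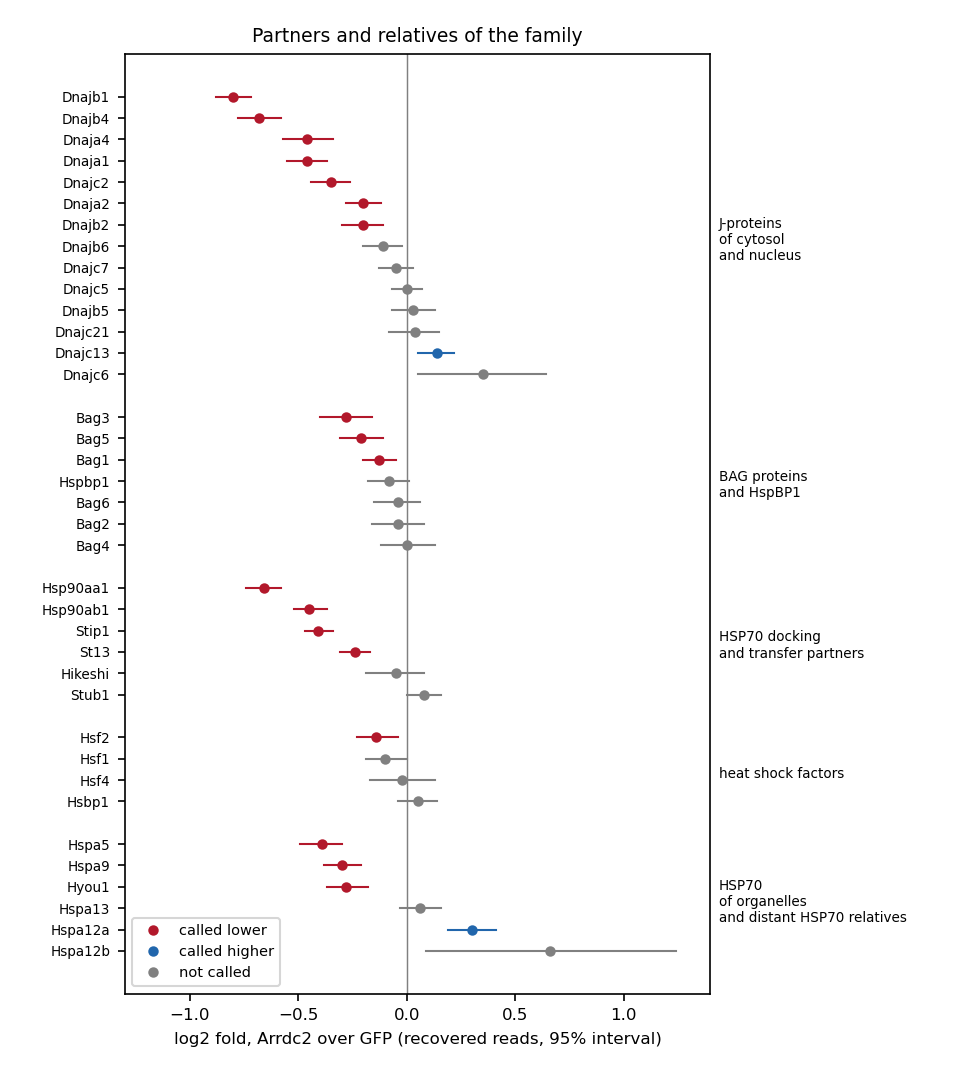
Log2 fold of 37 partner and related genes, Arrdc2 over GFP, from recovered reads (horizontal axis, points with 95% intervals), in 5 lists and coloured by the limma call on deposited values. Dnajb1, Dnajb4 and Hsp90aa1 lie farthest to the left, and the 2 genes called higher are Dnajc13 and Hspa12a.

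The genes whose deposited values were most like those of Hspa1b over the 10 libraries, among 9405 genes with a mean of at least 8, were Ptgs2, Osgin1, Csf1, Chka and Ptges3 (Pearson r 0.990 to 0.994). Those most like Hspa8 were Cct7, Cryab, Gm15459, Sqstm1 and Prdx6 (r 0.989 to 0.995). The 10 points form 2 groups, so this likeness holds the group difference, and the points share libraries and depth. After the mean of each group was subtracted, the list for Hspa1b shared none of these names: Dcaf12, Pgp, Abca1, Mrgprf and Rgmb, with r of 0.936 to 0.963 over 10 libraries and 0.70 to 0.90 without Arrdc2 library 10. For Hspa8 the list was then Smim7, Mrm3, Psmd13, Atp6v1g1 and Lsm10, with r of 0.929 to 0.982. Within groups Hspa1b and Hspa8 themselves varied without a close relation, at r = −0.38, and −0.12 without Arrdc2 library 10. Other pairs of members had larger values, with Hspa1b and Hsph1 at r = 0.74 (0.72 without Arrdc2 library 10) and Hspa8 and Hspa14 at 0.67 (0.6). In the other direction Hspa1b and Hspa14 were at −0.7 (−0.41), and Hspa8 and Hspa1a at −0.63 (−0.55). With 10 libraries and the best of many genes chosen, values of this size are a description only.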

How the data were processed

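Polyadenylated RNA of 5 Arrdc2 and 5 GFP libraries was analysed from a single table of regularized log (rlog) values, which the authors deposited on the log2 scale with 1 column per library. Per the submitters' processing notes STAR 2.7.10a, DESeq2 1.30.1 and GRCm39 were used. For the counting tool, annotation release and strand setting the sources used here give nothing. Columns are named by group and by a library number other than the labels' replicate numbers, so they served as unpaired replicates of their group.

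Identifiers were matched without version to GENCODE vM21 (GRCm38) symbols, for 52029 of 57010. As deposited, 24903 identifiers held 0 in every library. Genes with a mean rlog of at least 3 (15223) entered limma 3.58.1 (R 4.3.3, group only, mean-variance trend), with Benjamini-Hochberg adjustment over all of them and a threshold of 0.05. Whole reads were recovered by inverting the penalised count model behind rlog. Of held-out values of 1 read or more, 99.1% came within 0.1 of a whole number, against 20% for random values, and 87.8% above a mean of 10000 reads, where Hspa8, Hspa4 and Hsph1 lie. Folds and 95% intervals come from limma voom on these reads with the size factors recovered alongside, a step chosen after seeing the data; SE and adjusted p come from the deposited values. The scripts were tested on simulated data. Intervals cover the spread between libraries.

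Over 5553 genes of at least 1000 reads, replicate libraries had a median coefficient of variation of 4.54%. Libraries of a group differed by more than sampling noise (mean chi-square per gene 2.61 to 16.9), so all 10 were kept. Levels per kilobase used the longest protein-coding transcript, and shared words of 50 bases were counted over annotated transcripts. Members, lists and classes were chosen with earlier results of these data known. Named were all members, up to 3 called genes in each direction per partner list with the largest difference, the heat shock factors, and the 5 genes most like Hspa1b and Hspa8; the called cell type markers, Hikeshi, St13, Dnajc2, Gm15459 beside Hspa8, and Gm45902 were named after their values were seen.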

Additional observations from a re-analysis of the deposited data

Results flagged for a closer look

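For a single library to count as lying apart, its gap to the nearest library of its group, divided by the range of the group, had to exceed Dixon's 95% value for 5 samples, 0.71. Of 22 groups of 5 libraries examined, 3 held such a library, and chance gives about 1 in 20. Hspa1b was lowest in Arrdc2 library 10, at 771.0 normalised reads. Without that library its deposited log2 difference was −1.35, against −1.40 with it. Hspa14 was highest in GFP library 4, at 1191 normalised reads. The family sum per kilobase was lowest in Arrdc2 library 9, at 15021 normalised reads.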

How the results depend on the processing

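Over 171 recomputed differences of the 9 members (19 settings each), 166 kept direction and side of the threshold, among them all 76 of Hspa1a, Hspa1b, Hsph1 and Hspa8. With quantile normalization Hspa4 was no longer called, at −0.07 (limma adjusted p = 0.0728). The sign turned for Hspa1l without Arrdc2 library 10 (0.00) and for Hspa4l without Arrdc2 library 11 (0.00), with quantile normalization (0.02) and in reads scaled to total reads (0.03), all uncalled. Leaving out each library in turn gave 6 members called lower and 1 higher each time, 17 to 19 partner genes lower, 1 to 3 higher, a median member difference of −0.14 to −0.11, and an inducible minus constitutive difference of −0.96 to −0.91. Over the same settings Hspa1l and Hspa4l both ran from −0.03 to 0.00. Without Arrdc2 library 7 only 1 partner gene was called higher. Partner genes called higher were 4 with library weights and 4 in reads scaled to total reads, against 2 as reported. The inducible minus constitutive difference was −1.40 in recovered reads under all 3 scalings, −0.66 with Hspa4l counted as inducible and −0.86 without Hspa1l and Hspa2, against −0.94; the recovered reads lack the shrinkage of the deposited values. Scaling to total reads and scaling with the recovered size factors were chosen after seeing the data, as was the sum of Hspa8 and Gm15459, which gave a log2 fold of −0.56 against −0.58 for Hspa8. No paired analysis was possible because the library numbers of the columns do not carry the replicate numbers of the labels. Reads of the most abundant genes are the least exact, and Hspa1l has the fewest reads of the family and the widest interval.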
